A study of Saccharomyces cerevisiae with 279 samples.

Results

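The libraries described here measured mRNA sedimentation in budding yeast that had lost eIF4E before a 10 min heat shock at 42°C. They were chosen by their labels alone, as every Sed-seq library of the eIF4E degron strain shocked at 42°C, and they make up 12 of the 279 libraries of the series. Sed-seq is RNA sequencing of a whole lysate (Total) and of the supernatant and pellet into which the rest of it, once cleared by a short spin, is separated by centrifugation, and it gives for each mRNA the proportion in the supernatant, pSup. Of the 4 lysates, 2 came from mock-treated cells and 2 from eIF4E-depleted cells, and each gave 3 libraries. All 4 came from the MATα strain yHG038, which carries ura3Δ0, his3Δ1 and lys2Δ0, the insertion pZ4EV-OsTIR1_Z4EV-ATF_LEU2 at leu2, and the allele CDC33::CDC33-AID*-3xflag. In this strain CDC33, the gene of eIF4E, is fused to an auxin-inducible degron, and the Z4EV promoter makes the auxin receptor OsTIR1 in cells given β-estradiol. Depleted cultures received β-estradiol and then auxin, and mock cultures were given DMSO in place of β-estradiol, so an effect of these compounds and an effect of losing eIF4E cannot be told apart here. Cells were grown in YPD at 30°C, and the lysates were made with EDTA, which takes polysomes apart so that they do not pellet with the condensates. The same strain gave 12 libraries at 30°C and 12 at 46°C, and the eIF3b degron strain yJB042, which shares these alleles except that PRT1, not CDC33, carries the AID*-3xflag degron, gave 12 at 42°C after the same kinds of treatment. These serve below only as comparisons, as do Total libraries of untreated wild-type BY4741 cells at 30°C and after 10 min at 42°C, from which 1 list of induced mRNAs was drawn.

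eIF4E binds the 5′ cap of mRNAs and, with the scaffold eIF4G and the helicase eIF4A, forms eIF4F, which brings the small ribosomal subunit to the message. Cap recognition is an early step of initiation, whereas eIF3, of which eIF3b is a subunit, acts on the small subunit that is recruited afterwards. During heat shock yeast mRNAs gather with proteins such as poly(A)-binding protein into condensates that pellet on centrifugation, and a fall of pSup at a given length is the readout of that gathering. Hsf1 and Msn2/4 are the transcription factors that induce chaperone genes and general stress genes in heat.

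Total libraries at 42°C held between 5707144 and 7185088 estimated counts, supernatant libraries between 4921756 and 8444468, and pellet libraries between 7161122 and 8579915. In TPM the markers of the labelled mating type, α, were above those of a cells, which at 42°C were higher in depleted than in mock cells. The α-cell gene STE3 had 177, 167, 270 and 307 TPM in mock replicates 1 and 2 and depleted replicates 1 and 2. The a-cell pheromone gene MFA1 had 12.6, 21.1, 91.5 and 130 TPM in the same order. MFA1 held only 2 to 26 counts in each Total library over all 3 temperatures. URA3, deleted in the strain, had 0 counts in all 12 Total libraries, LYS2 had 1 to 4, and HIS3, whose allele his3Δ1 is a partial deletion, kept at least 45.4 TPM. The degron acts on the protein, so the CDC33 mRNA does not check the depletion, and no library here measures eIF4E protein. Total libraries of the depleted cells held less yeast mRNA for each read of NanoLuc, an RNA added in a fixed amount to every Total, supernatant and pellet sample after fractionation, before RNA was isolated. Counts of nuclear mRNA for each NanoLuc count were 14282 and 13264 in mock and 7380 and 6769 in depleted lysates, a 1.95-fold lower mean in the depleted cells (exact permutation test, 2-sided, p = 0.33, the smallest that 2 against 2 lysates can give). The mRNA of fewer cells and less mRNA in each cell cannot be told apart in such lysates.

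Nearly the whole transcriptome sedimented more in the depleted cells. Over 4938 transcripts, mock lysates had a median pSup of 0.463 and 0.566, and depleted lysates one of 0.380 and 0.314. Both depleted lysates lay below both mock lysates, and the 2 mock lysates differed from each other by more than the lower of them did from the higher depleted one. The means were 0.514 ± 0.0723 and 0.347 ± 0.0467 (SD, n = 2), with a difference of -0.168 (exact permutation test, p = 0.33). With supernatant and pellet scaled to NanoLuc instead of to the Total library, the medians were 0.564 and 0.597 in mock and 0.387 and 0.359 in depleted lysates, and the mock lysates then lay closer together. By transcript, pSup in both depleted lysates was below both mock lysates for 4407 of 4938 mRNAs (89.2%) and above both for 3.

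Tested on the natural-log odds of pSup with limma, 3417 transcripts (69.2% of those tested) were lower and 1 (0.0203%), PIR3, was higher in the depleted cells at an adjusted p under 0.05. The median change was -0.70 in natural-log units, and 99.3% of transcripts had a change below 0. This count rested on single lysates, since an offset shared by all transcripts of a lysate enters every one of these changes. It was 3 lower without depleted replicate 2 and 3 lower and 1 higher without mock replicate 2, and a fit of the 4 lysates alone called 176. Of the 39 transcripts named in the text that were called on this uncentred scale, 0 kept the call without depleted replicate 2. Limma draws each standard error towards those of other transcripts. The uncentred errors given below were nearly alike, so they and their p-values do not measure the spread of a transcript alone. The study's differential sedimentation score, ΔSed, is the fall of log-odds pSup divided by the spread of control transcripts around the mean of their length. Here that spread was 1 value over all transcripts of the same-numbered mock lysate at 42°C. The study takes it from unstressed control cells, so the scale differs from that of its published scores. Median ΔSed was 0.798 for the replicate 1 pair and 2.47 for the replicate 2 pair, 1.63 ± 1.19 on average (SD, n = 2). Replicate numbers did not pair the lysates in pSup (r = -0.027 between same-numbered deviations at 42°C). The 2 values and their SD therefore depend on which lysates are set together. With log-odds averaged over lysates first, the median was 1.67.

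**Figure D1:**
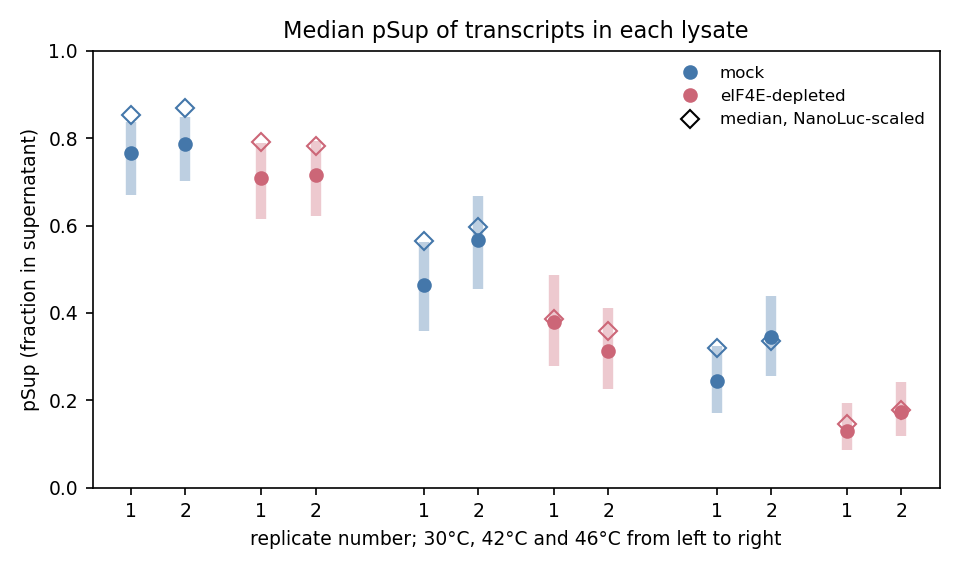
Each filled point is the median pSup (fraction in the supernatant, y axis) of 4938 transcripts in 1 lysate of the eIF4E degron strain, with a bar from the lower to the upper quartile, for replicates 1 and 2 of mock and depleted cells at 30, 42 and 46°C from left to right. Open diamonds are the medians after scaling to NanoLuc. At 42°C the depleted lysates, at 0.380 and 0.314, sit below the mock lysates, at 0.463 and 0.566.

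Transcript length made little difference to the size of the shift. Transcripts were split by length into 4 classes of equal size, and the shortest, of 294 to 998 nt, had a median change of -0.69 in log-odds pSup, while the longest, of 2229 to 14904 nt, had -0.73. The 2 classes between them had medians of -0.68 and -0.69. Median pSup itself fell with length within every lysate, from 0.581 in the shortest to 0.331 in the longest class of mock replicate 1 and from 0.508 to 0.244 in depleted replicate 1. Across transcripts, length and change had a Spearman rho of -0.085 (n = 4938 transcripts, which are not independent replicates and share the same 4 lysates).

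To compare transcripts with others of similar length in the same lysate, log-odds pSup was centred on a running mean over length, which removes a shift common to the lysate. On this scale 396 transcripts were higher (8.02%) and 491 lower (9.94%) in the depleted cells by limma, 887 in all. A higher value means that the mRNA stayed in the supernatant better than its length class, and a lower value that it sank more. The count fell to between 304 and 396 when any 1 of the 4 lysates was left out, which leaves 1 group with a single lysate whose spread is taken from the other groups. Without depleted replicates 1 and 2 it was 396 and 304, without mock replicates 1 and 2 it was 307 and 317, and a fit of the 4 lysates alone called 545. Of the 59 transcripts named in the text that were called on this scale, 40 kept the call whichever lysate was left out. The authors' escape score eSed, which expresses the same difference in units of the spread of mock transcripts, had a Spearman rho of 0.611 between the 2 replicate pairs, over transcripts.

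The transcripts of the cap-binding machinery sank with the rest of the transcriptome. In log-odds pSup, 9 of the 12 measured members of the list were lower by limma, beside 69.2% of all transcripts, and 0 were higher, with a median of -0.67. CDC33 (YOL139C, R64 chromosome XV, 60383 to 61024) had a pSup of 0.716 and 0.782 in mock and 0.643 and 0.554 in depleted lysates. Its groups did not overlap. Its log-odds changed by -0.70 ± 0.27 (SE, adjusted p = 0.0201, limma), with an error drawn towards those of other transcripts. On the length-centred scale CDC33 moved with its class, at -0.03 ± 0.06 (adjusted p = 0.728). TIF1 and TIF2, the near-identical genes of eIF4A whose reads cannot be assigned with certainty, fell by 0.76 and 0.70 in log-odds and had length-centred changes of -0.10 and -0.03 that did not pass. Likewise TIF3, the gene of eIF4B, TIF4632, an eIF4G gene, CAF20, an eIF4E-binding protein, and CBC2, of the nuclear cap-binding complex, were lower in log-odds pSup, and their length-centred changes of 0.03, 0.10, -0.03 and 0.03 did not pass.

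Against their length class, 3 members of this list stayed in the supernatant and 2 sank further, beside 8.02% and 9.94% of all transcripts, and 2 or 3 and 1 when 1 lysate was left out. DED1, which encodes a DEAD-box helicase of scanning, had a pSup of 0.566 and 0.672 in mock and 0.616 and 0.562 in depleted lysates. These groups overlapped, whereas most transcripts of that length fell, and the length-centred change was 0.56 ± 0.05 (SE, adjusted p = 0.00044, limma). EAP1, an eIF4E-binding protein that competes with eIF4G, rose by 0.37 ± 0.06 on that scale, and TIF4631, the major eIF4G gene, by 0.24 ± 0.05 (adjusted p = 0.00542 and 0.0092), the latter call being lost without depleted replicate 2 or either mock replicate. PAB1, the gene of poly(A)-binding protein, had a pSup of 0.538 and 0.643 in mock and 0.38 and 0.308 in depleted lysates. The 2 groups were well apart, and the length-centred change was -0.36 ± 0.05 (adjusted p = 0.00338). STO1, the other subunit of the nuclear cap-binding complex, was lower at -0.22 ± 0.05 (adjusted p = 0.0163), a call lost without any 1 of the 4 lysates. Among the factors that act around the small subunit, 4 of 10 measured members of the eIF3 and scanning list were higher and 2 were lower, beside 8.02% and 9.94% of all transcripts, and 1 to 3 were higher and 1 or 2 lower when 1 lysate was left out. FUN12, the gene of eIF5B, rose by 0.32 ± 0.05 and SUI1, the gene of eIF1, by 0.38 ± 0.07 (adjusted p = 0.0039 and 0.00866), SUI1 not without depleted replicate 1 or mock replicate 2, and PRT1, the gene of eIF3b, fell by 0.35 ± 0.05 (adjusted p = 0.00403).

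Most heat shock chaperone mRNAs stayed in the supernatant. Of the 20 measured chaperones outside the cytosolic Hsp70 family, 15 were higher on the length-centred scale and 0 lower, beside 8.02% and 9.94% of all transcripts, with a median change of 0.55 against -0.02 for all. Under every alternative tried between 8 and 17 were higher and 0 lower, the lowest from edgeR on supernatant and pellet counts. In uncentred log-odds 2 of the 20 were called lower by limma, beside 69.2% of all transcripts, and 18 were not called. A change above 0 was seen for 6 of the 20, and the median of the list was -0.09. Their median eSed was 1.13 in the replicate 1 pair and 1.39 in the replicate 2 pair, against -0.036 and -0.037 for all transcripts. The 47 labelled Hsf1 targets, which share members with the chaperone list, gave 34 higher and 0 lower and a median of 0.45, and 23 or 24 higher when 1 lysate was left out. A list drawn from other lysates, the 100 mRNAs most induced by 42°C in the wild-type heat experiment, gave 41 higher and 0 lower of 68 measured, with a median of 0.46, and 27 to 33 higher when 1 lysate was left out.

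Among the chaperones, HSP82, the heat-inducible Hsp90 gene, had a pSup of 0.703 and 0.759 in mock and 0.79 and 0.737 in depleted lysates. The groups overlapped and depleted replicate 1 was the highest, so that its pSup did not follow the fall of the other transcripts. The length-centred change was 0.85 ± 0.08 (SE, adjusted p = 0.000864, limma) and the uncentred one 0.17 ± 0.27 (adjusted p = 0.539). HSP104, which encodes the disaggregase, had a pSup of 0.654 and 0.713 in mock and 0.729 and 0.688 in depleted lysates. BTN2, an aggregase that collects misfolded proteins, had 0.632 and 0.726 in mock and 0.735 and 0.677 in depleted lysates. In both the depleted replicate 1 was above each mock lysate and replicate 2 between them, with length-centred changes of 0.81 ± 0.08 and 0.79 ± 0.08 (adjusted p = 0.000864 and 0.000984). HSP78, the mitochondrial disaggregase, rose by 0.77 ± 0.07, HSP10, the mitochondrial co-chaperonin, by 0.69 ± 0.09, and HSP26, a small heat shock protein, by 0.61 ± 0.09 on that scale, all past the test.

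The cytosolic Hsp70 family split by member, with length-centred calls to be read beside 8.02% higher and 9.94% lower of all transcripts. The heat-inducible SSA4 had a pSup of 0.703 and 0.752 in mock and 0.783 and 0.73 in depleted lysates, and SSB1, a ribosome-associated Hsp70 that heat does not induce, had 0.632 and 0.696 in mock and 0.462 and 0.382 in depleted lysates. SSA4 thus overlapped between the groups, while both depleted values of SSB1 were below both mock values. Length-centred, SSA4 rose by 0.82 ± 0.10 (SE, adjusted p = 0.00175, limma) and SSB1 fell by 0.33 ± 0.08 (adjusted p = 0.0197). Its near-identical paralog SSB2 fell by 0.33 ± 0.08 (adjusted p = 0.0262), and the calls of both were lost without any of depleted replicate 1, depleted replicate 2 and mock replicate 1, that of SSB2 also without mock replicate 2. SSA1 and SSA2, which also share much sequence, rose by 0.63 ± 0.07 and 0.57 ± 0.07. The list as a whole gave 5 higher and 2 lower of 10, and 4 higher and 0 or 1 lower when 1 lysate was left out.

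**Figure D2:**
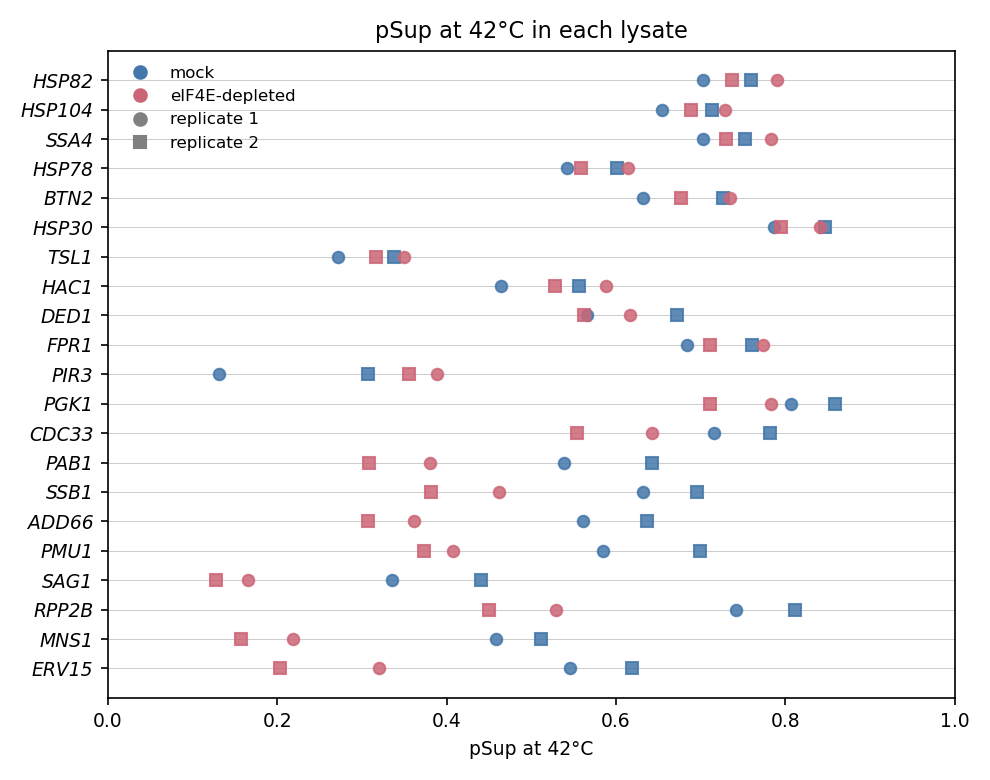
Each point is the pSup (x axis, fraction in the supernatant at 42°C) of 1 transcript in 1 lysate, with mock in blue, eIF4E-depleted in red, replicate 1 as circles and replicate 2 as squares. From HSP82 down to FPR1 the 2 groups overlap, PIR3 is higher in the depleted lysates, and from PGK1 down to ERV15 both depleted values are below both mock values, as for SSB1 at 0.462 and 0.382 against 0.632 and 0.696.

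Transcripts of other stress functions were also among those higher on the length-centred scale. Their lists are to be read beside 8.02% higher and 9.94% lower of all transcripts. In uncentred pSup both depleted lysates were below both mock lysates for 13 of 16 trehalose and glycogen and 12 of 17 glycolysis transcripts. The same held for 11 of 15 efflux genes and 1 of 5 short stress genes, beside 89.2% of all transcripts. In the trehalose and glycogen list 7 of 16 were higher and 0 lower, with a median of 0.25, but 3 to 5 were higher when 1 lysate was left out. TSL1, a regulatory subunit of the trehalose synthase complex, had a pSup of 0.272 and 0.338 in mock and 0.35 and 0.316 in depleted lysates, a length-centred rise of 0.87 ± 0.07 (SE, adjusted p = 0.000395, limma), and TPS2, its phosphatase, rose by 0.66 ± 0.05. GDB1, the glycogen debranching enzyme, rose by 0.44 ± 0.07. Among short stress genes 4 of 5 measured were higher and 0 lower, and 2 or 3 when 1 lysate was left out. They included HSP30, a regulator of the plasma membrane proton pump, and SPI1, a cell wall protein, at 0.64 ± 0.05 and 0.58 ± 0.08. STF2, which encodes a small stress-induced hydrophilin, had a pSup of 0.74 and 0.835 in mock and 0.846 and 0.805 in depleted lysates and rose by 0.90 ± 0.11 (adjusted p = 0.00175). In glycolysis 6 of 17 were higher and 1 lower, and 4 or 5 higher and 0 lower when 1 lysate was left out. HXK1 and HXK2, the hexokinase genes, rose by 0.61 ± 0.06 and 0.36 ± 0.06, and TDH2 and FBA1 by 0.39 ± 0.05 and 0.33 ± 0.05, whereas PGK1 had a change of 0.14 ± 0.09 that did not pass (adjusted p = 0.289). Of 15 drug and weak-acid efflux genes 4 were higher and 0 lower, and 1 or 2 when 1 lysate was left out, among them the ABC transporter PDR15 at 0.56 ± 0.08.

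HAC1 and PIR3 were, with STF2, TSL1 and HSP82, the 5 largest length-centred rises among called transcripts with at least 100 counts and the same sign in both replicate numbers. HAC1 (YFL031W, R64 chromosome VI, 75179 to 76147) encodes the transcription factor of the unfolded protein response, and its unspliced mRNA is held untranslated by base pairing between its intron and its leader. In mock lysates its pSup was 0.464 and 0.556, and in depleted lysates 0.588 and 0.528. The groups overlapped, and the length-centred change was 0.87 ± 0.07 (SE, adjusted p = 0.000395, limma). Of the 13 measured members of the unfolded protein response list, HAC1 included, 2 were higher and 1 lower, beside 8.02% and 9.94% of all transcripts, and 0 were lower when 1 lysate was left out. The other one that was higher was KAR2, the Hsp70 of the endoplasmic reticulum, at 0.48 ± 0.07. PIR3 (YKL163W, R64 chromosome XI, 144401 to 145378), a cell wall protein gene, had a pSup of 0.131 and 0.307 in mock and 0.389 and 0.355 in depleted lysates, and it was the only transcript higher in uncentred log-odds, by 0.83 ± 0.27 (adjusted p = 0.00927), a call lost without depleted replicate 2 or mock replicate 1. Its mock lysates differed more than its depleted ones, and it was rare in Total, at 9.14, 6.75, 28.3 and 29.8 TPM in mock replicates 1 and 2 and depleted replicates 1 and 2. GCN4, another transcript under special translational control, through short upstream reading frames, had a pSup of 0.323 and 0.423 in mock and 0.264 and 0.207 in depleted lysates, and it moved with its length class, at 0.01 ± 0.07 (adjusted p = 0.919).

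The transcripts that sank most against their length class were of varied functions. MNS1, an α-mannosidase of the endoplasmic reticulum, had a pSup of 0.458 and 0.511 in mock and 0.219 and 0.157 in depleted lysates. ERV15, a cargo receptor of vesicles leaving that compartment, had 0.546 and 0.619 in mock and 0.32 and 0.203 in depleted lysates. Both depleted values of each gene were far below its mock values, and the length-centred changes were -0.74 ± 0.16 and -0.71 ± 0.13 (SE, adjusted p = 0.016 and 0.00873, limma), calls lost without mock replicate 1 or depleted replicate 2 and, for MNS1, depleted replicate 1. USO1, the tether of those vesicles, and TAF1, a subunit of TFIID, were with MNS1, ERV15 and AIM34, a mitochondrial protein, the 5 largest falls in uncentred log-odds, from -1.41 to -1.32. On the length-centred scale TAF1 fell by 0.59 ± 0.09 (adjusted p = 0.00403), and USO1 had -0.52 ± 0.25, which did not pass. SAG1, the α-agglutinin of mating, had a pSup of 0.336 and 0.441 in mock and 0.165 and 0.128 in depleted lysates and fell by 0.65 ± 0.07 (adjusted p = 0.00125). RPP2B, an acidic protein of the ribosomal stalk, had 0.742 and 0.811 in mock and 0.529 and 0.45 in depleted lysates and fell by 0.61 ± 0.09 (adjusted p = 0.0039).

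Ribosome biogenesis, amino acid synthesis and stress granule genes had more members called below their length class than above it, beside 9.94% and 8.02% of all transcripts. Ribosome biogenesis gave 12 lower and 4 higher of 47, and 4 to 6 lower and 0 to 3 higher without 1 lysate, with CBF5, the pseudouridine synthase of small nucleolar particles, at -0.36 ± 0.05. Amino acid synthesis gave 10 lower and 2 higher of 38, and 6 to 8 lower and 1 or 2 higher without 1 lysate. ARO1, which encodes 5 activities of aromatic synthesis in 1 protein, had a pSup of 0.43 and 0.525 in mock and 0.25 and 0.193 in depleted lysates and fell by 0.43 ± 0.05 (SE, adjusted p = 0.00115, limma). ARG8, of arginine synthesis, rose by 0.64 ± 0.08. PBP1, which encodes a Pab1-binding protein of stress granules, fell by 0.52 ± 0.06 (adjusted p = 0.00115), 1 of 3 lower and 1 higher among 12 stress granule genes, of which 1 or 2 were lower and 0 higher without 1 lysate. Cytosolic ribosomal protein genes, many of them in near-identical pairs, gave 20 lower and 11 higher of 138, and 6 or 7 lower and 2 or 3 higher without 1 lysate, with RPL3 at -0.42 ± 0.05. ADD66, a proteasome assembly chaperone, and PMU1, a putative phosphomutase, had pSup values of 0.561 and 0.637, and 0.585 and 0.699, in mock. Their depleted values of 0.362 and 0.307, and 0.407 and 0.373, were all lower, with length-centred changes of -0.40 ± 0.10 and -0.37 ± 0.08 whose calls were lost without any of mock replicate 1, mock replicate 2 and depleted replicate 1, that of ADD66 also without depleted replicate 2.

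**Figure D3:**
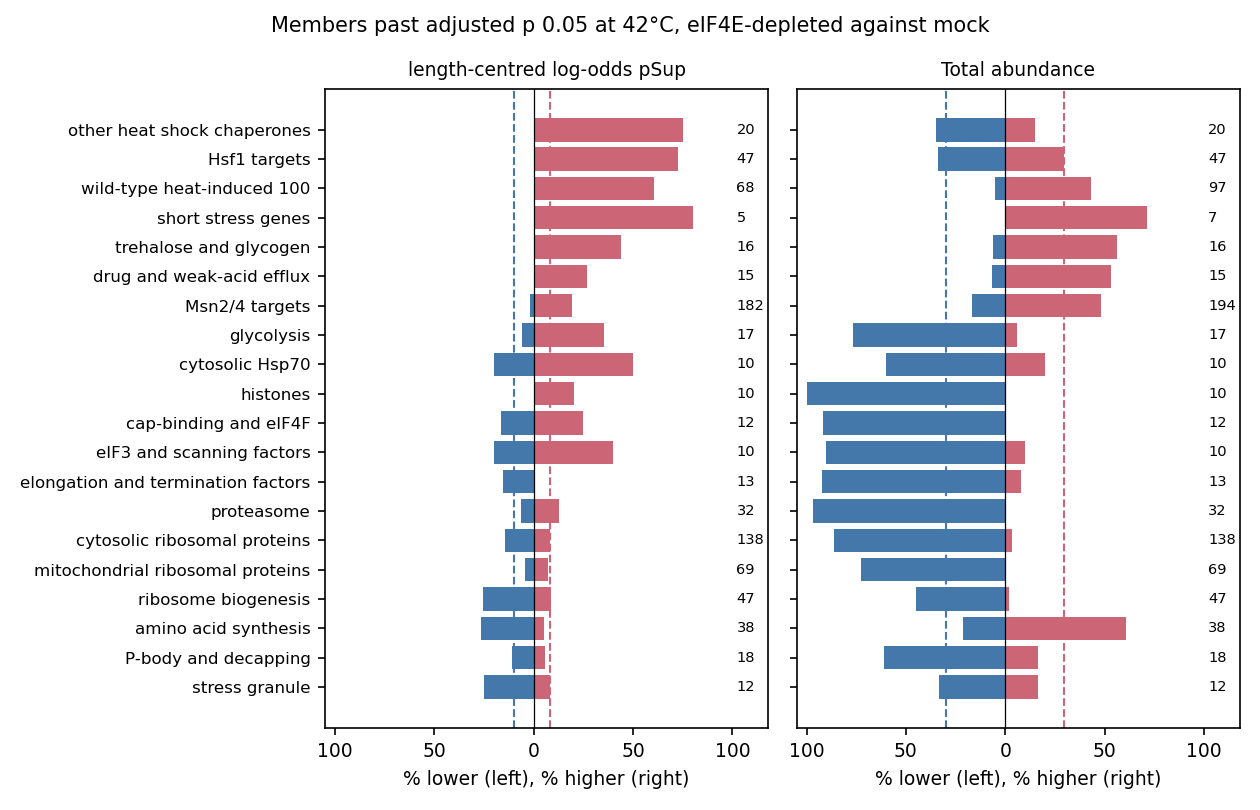
Bars give the percentage of each list's measured members (number at the right of each panel) that were lower (blue, left) or higher (red, right) in eIF4E-depleted than mock cells at 42°C at an adjusted p under 0.05, for length-centred log-odds pSup (left panel, limma) and Total abundance relative to the other mRNAs (right panel, edgeR). Dashed lines are the percentages over all transcripts tested, 9.94 and 8.02 on the left and 30.0 and 29.8 on the right. In the chaperone list 15 of 20 were higher on the left, and all 10 histone genes were lower on the right; scaled to NanoLuc, 3441 transcripts were lower and 171 higher in Total.

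Total abundance changed for 3297 of the 5515 transcripts tested at 42°C, with 1642 higher (29.8%) and 1655 lower (30.0%) in the depleted cells by edgeR's quasi-likelihood test. These changes are relative to the other mRNAs of a library, scaled by TMM. Scaling to all nuclear mRNA counts instead moved the median of all transcripts from 0.01 to 0.33 log2 units and gave 2975 higher and 805 lower, and scaling to NanoLuc moved it to -0.63 and gave 171 higher and 3441 lower. Both of these scalings were chosen after seeing the data. The split of calls by direction therefore rests on the scale, and the values below are changes relative to the TMM median.

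Genes of arginine synthesis were among the largest rises. ARG1, the argininosuccinate synthase, had 8.02 and 9.33 TPM in mock and 184.5 and 199.8 TPM in depleted cells. ARG3, the ornithine transcarbamylase, had 2.29 and 3.34 TPM in mock and 64.03 and 82.5 TPM in depleted cells. The groups of both were far apart, with log2 changes of 4.27 ± 0.13 and 4.51 ± 0.19 (SE, adjusted p = 5.28e-11 and 1.75e-09, edgeR). Of the same pathway ARG4 and ARG5,6 rose by 2.79 ± 0.08 and 2.64 ± 0.12, and ARG8 by 0.79 ± 0.09. These genes were not a list of their own. Amino acid synthesis as a whole gave 23 higher and 8 lower of 38, beside 29.8% and 30.0% of all transcripts, with a median of 0.38. Under NanoLuc the median became -0.27, with 9 higher and 15 lower. GCN4, the activator of these genes, rose by 0.48 ± 0.07 in its own mRNA (adjusted p = 2.85e-05), and by NanoLuc it was at -0.17. The largest falls included SAM1, SAM2 and MET17. SAM2, an S-adenosylmethionine synthetase, had 81.2 and 82.8 TPM in mock and 21.9 and 14.6 TPM in depleted cells, and changed by -2.39 ± 0.18, beside -2.21 ± 0.11 for its paralog SAM1. MET17, the O-acetylhomoserine sulfhydrylase, and MET6, the methionine synthase, were at -2.18 ± 0.16 and -2.08 ± 0.14.

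Among the other transcripts furthest down were URA1 of pyrimidine synthesis, at -2.18 ± 0.09 log2 units, and POL30, the replication clamp, at -2.14 ± 0.17. Histone genes, which are transcribed in S phase, were lower for 10 of 10, with a median of -1.23. Over all transcripts 30.0% were lower and 29.8% higher, and the lists that follow are to be read beside these shares. HHF2, a histone H4 gene with a near-identical copy, had 971.1 and 1000.0 TPM in mock and 394.9 and 323.5 TPM in depleted cells and changed by -1.62 ± 0.08 (SE, adjusted p = 5.26e-09, edgeR). Glycolysis gave 13 lower and 1 higher of 17, with PGK1 at -1.46 ± 0.15 and HXK2 at -1.86 ± 0.11. The proteasome gave 31 lower and 0 higher of 32, elongation and termination factors 12 lower and 1 higher of 13, and the cap-binding list 11 lower and 0 higher of 12. CDC33 had 638.5 and 647.5 TPM in mock and 463.0 and 460.8 TPM in depleted cells, a change of -0.67 ± 0.05 (adjusted p = 2.17e-07), and the elongation factor gene YEF3 was at -0.96 ± 0.06. Ribosomal protein genes were lower for 119 and higher for 5 of 138 in the cytosolic list, and lower for 50 and higher for 0 of 69 in the mitochondrial list. The medians of all of these lists were below 0 under each of the 3 scalings.

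Stress genes were mixed in abundance. The chaperone list gave 3 higher and 7 lower of 20, beside 29.8% and 30.0% of all transcripts, and 1 to 5 higher and 7 or 8 lower when 1 library was left out. Its median was 0.15, which became -0.12 without depleted replicate 1, -0.03 without mock replicate 2 and -0.49 by NanoLuc. SSA4 had 255.7 and 214.3 TPM in mock and 517.8 and 406.0 TPM in depleted cells, and rose by 0.77 ± 0.18 (SE, adjusted p = 0.0021, edgeR). SSA2, the constitutive Hsp70, had 2218 and 2031 TPM in mock and 1071 and 774 TPM in depleted cells, and changed by -1.41 ± 0.21. Both stayed up by the length-centred scale, so the direction of a gene in Total did not fix its direction in sedimentation. Over all transcripts the 2 changes had a Spearman rho of -0.034, as a description over 4938 transcripts of the same lysates. Trehalose and glycogen genes gave 9 higher and 1 lower of 16, with 6 to 12 higher when 1 library was left out, and short stress genes 5 higher and 0 lower of 7, with medians of 0.47 and 0.99, the first turning to -0.17 by NanoLuc and the second staying at 0.34. HAC1 rose from 663.9 and 669.5 TPM to 1552 and 1652 TPM, by 1.08 ± 0.07 (adjusted p = 2.36e-08).

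**Figure D4:**
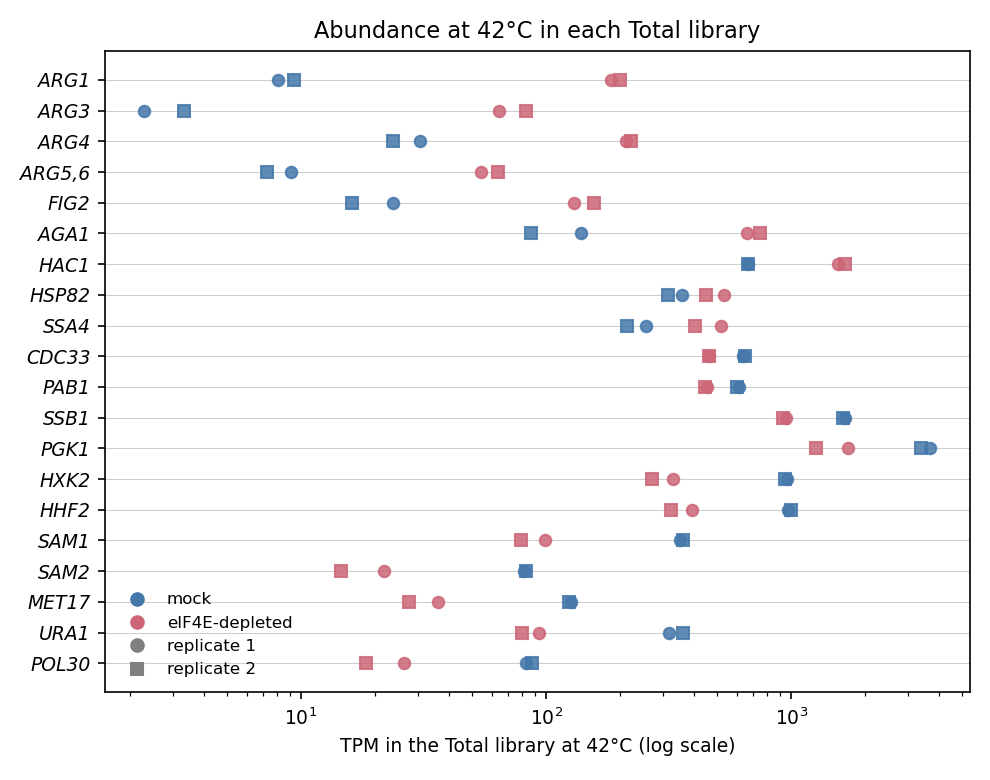
Each point is the abundance of 1 transcript in 1 Total library at 42°C, in TPM on a log scale (x axis), with mock in blue, eIF4E-depleted in red, replicate 1 as circles and replicate 2 as squares. ARG1 is at 8.02 and 9.33 TPM in mock and 184.5 and 199.8 TPM in depleted cells, and SAM2 at 81.2 and 82.8 against 21.9 and 14.6; TPM is relative to the other mRNAs, and by NanoLuc the depleted libraries held 1.95-fold less mRNA.

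Mating genes were higher as well, where 29.8% of all transcripts were higher and 30.0% lower. FIG2 and AGA1, cell wall adhesion proteins induced by pheromone, rose by 2.63 ± 0.20 and 2.43 ± 0.25 log2 units (SE, adjusted p = 1.11e-07 and 1.84e-06, edgeR). AGA1 had 139.0 and 86.7 TPM in mock and 662.3 and 745.5 TPM in depleted cells. The a-cell genes STE2, the α-factor receptor, MFA1 and BAR1 moved with them. All 3 measured of the 4 a-cell markers were higher at 42°C, and 1 of 3 was higher at 30°C. STE2 had 2.65 and 1.66 TPM in mock and 7.55 and 9.40 TPM in depleted cells. Counts were low, at 18 to 133 for STE2, 2 to 26 for MFA1 and 5 to 26 for BAR1 over all 12 Total libraries. Of the 3 α-cell markers 2 were higher and 0 lower, MF(ALPHA)1 by 0.39 ± 0.07 and STE3 by 0.54 ± 0.07, the signs of both turning by NanoLuc. Whether a few cells of the other mating type took part in these rises was not tested.

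The abundance changes were nearly those seen without heat. Of 5515 transcripts, 1694 were higher (30.7%) and 1608 lower (29.2%) in depleted cells at 30°C by edgeR, and across transcripts the changes at 42°C and 30°C had a Spearman rho of 0.921. ARG1 was at 4.22 ± 0.12 log2 units at 30°C and 4.27 ± 0.13 at 42°C, SAM2 at -2.28 ± 0.18 and -2.39 ± 0.18. For the difference between the 2 temperatures 0 transcripts (0%) passed, with 232 at an unadjusted p under 0.05 and 2 by DESeq2. With the replicate number as a block, which the Total libraries share, 13 were higher and 9 lower. Against 46°C, 0 transcripts passed in Total without the block, with 167 at an unadjusted p under 0.05, and 7 higher and 2 lower with it.

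Chaperone mRNAs were induced by the heat shock in both kinds of cell. Within mock cells 10 of 20 were higher at 42°C than at 30°C and 0 lower, beside 0.707% and 1.34% of all transcripts, and within depleted cells 19 of 20 were higher and 0 lower, beside 1.36% and 2.85%. The median rise was 0.68 log2 units in mock and 1.17 in depleted cells. HSP82 had 232.4 and 173.6 TPM at 30°C and 359.3 and 315.1 TPM at 42°C in mock, and 185.3 and 101.7 TPM at 30°C and 530.2 and 447.9 TPM at 42°C in depleted cells. The groups overlapped at 30°C and did not at 42°C, and the difference between them at 42°C, 0.33 ± 0.21, did not pass (adjusted p = 0.203). From 30°C to 42°C the change was 0.84 ± 0.22 in mock (SE, adjusted p = 0.0778, edgeR) and 1.84 ± 0.22 in depleted cells (adjusted p = 0.000164). The difference of the 2 changes was 1.00 ± 0.31 and did not pass (adjusted p = 1.0). KAR2 had changes of 0.53 ± 0.16 and 1.60 ± 0.17 and a difference of 1.08 ± 0.23 (adjusted p = 0.445), and SSA4 rises of 4.11 ± 0.22 and 4.22 ± 0.21. For 19 of the 20 chaperones the difference was above 0, with 0 past the test and a median of 0.40.

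In sedimentation, the depletion effect at 42°C and that at 30°C were of the same sign. At 30°C mock lysates had a median pSup of 0.765 and 0.786 and depleted lysates of 0.710 and 0.716, a difference of -0.0624 beside -0.168 at 42°C. At 30°C limma called 0 transcripts higher and 2 lower (0.0405%) in log-odds pSup, with 605 at an unadjusted p under 0.05. The difference of the 2 effects had a median of -0.36 natural-log units and was below 0 for 95.2% of transcripts, but 0 transcripts (0%) passed, 158 having an unadjusted p under 0.05, and 6 passed after scaling to NanoLuc. On the length-centred scale 2 transcripts (0.0405%) were higher at 42°C than at 30°C and 0 lower, with 698 at an unadjusted p under 0.05. FPR1, the FK506-binding prolyl isomerase, had a pSup of 0.684 and 0.76 in mock and 0.773 and 0.711 in depleted lysates at 42°C, and 0.897 and 0.897 in mock and 0.877 and 0.88 in depleted lysates at 30°C. Its length-centred effect was larger by 0.66 ± 0.08 (SE, adjusted p = 0.0349, limma), and that of YNL108C by 0.71 ± 0.08 (adjusted p = 0.0349), both calls being lost without any 1 of the 8 lysates. The chaperone list had a median of 0.18 at 30°C, where 3 of 20 were higher and 1 lower (2.43% and 5.93% of all), beside 15 higher and 0 lower at 42°C. The difference was above 0 for 19 of 20 with a median of 0.42, and 0 passed the test. Amino acid synthesis had 17 of 38 lower at 30°C and 0 higher, with a median of -0.21, beside -0.07 at 42°C, and 0 of 38 passed the test of the difference.

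At 46°C the depletion effect was close to that at 42°C. At 46°C mock lysates had a median pSup of 0.245 and 0.346 and depleted lysates of 0.131 and 0.173, a difference of -0.143. On the length-centred scale 0 transcripts (0%) differed between the effects at 42°C and 46°C, with 387 at an unadjusted p under 0.05, and the changes had a Spearman rho of 0.713 across transcripts. In uncentred log-odds 3 transcripts passed by limma, 2 higher (0.0405%) and 1 lower (0.0203%), all of them rare. GIP1 and HOP1, both meiotic genes, differed by 1.99 ± 0.39 and 1.87 ± 0.39 natural-log units, and MPH2, a maltose permease gene, by -2.32 ± 0.44, and with a minimum of 100 counts in every lysate 0 transcripts passed. Without replicate 2 of the 46°C mock lysates 7 passed.

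Depletion of eIF3b at 42°C, with its own mock lysates, gave a comparison with the loss of another initiation factor. In that strain 10 transcripts were higher (0.203%) and 4378 lower (88.9%) in log-odds pSup, with a median of -1.09 beside -0.70 for eIF4E, in a fit of both strains. The eIF4E effect was higher, that is less of a fall, for 471 of 4927 transcripts (9.56%) and lower for 5 (0.101%). That count ran from 6 to 1141 as 1 lysate of either strain was left out, 6 without eIF3b-depleted replicate 1, 8 without mock replicate 1, 29 without depleted replicate 1, 70 and 136 without eIF3b mock replicates 1 and 2 and 1141 without mock replicate 2, and it was 2791 by NanoLuc. On the length-centred scale, where lysate offsets drop out, 1012 transcripts were higher (20.5%) and 964 lower (19.6%) under eIF4E than under eIF3b depletion. In Total 1830 were higher (31.8%) and 1766 lower (30.7%) of 5746 by edgeR. Across transcripts the 2 depletions had a Spearman rho of 0.681 in Total and of 0.193 on the length-centred scale.

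**Figure D5:**
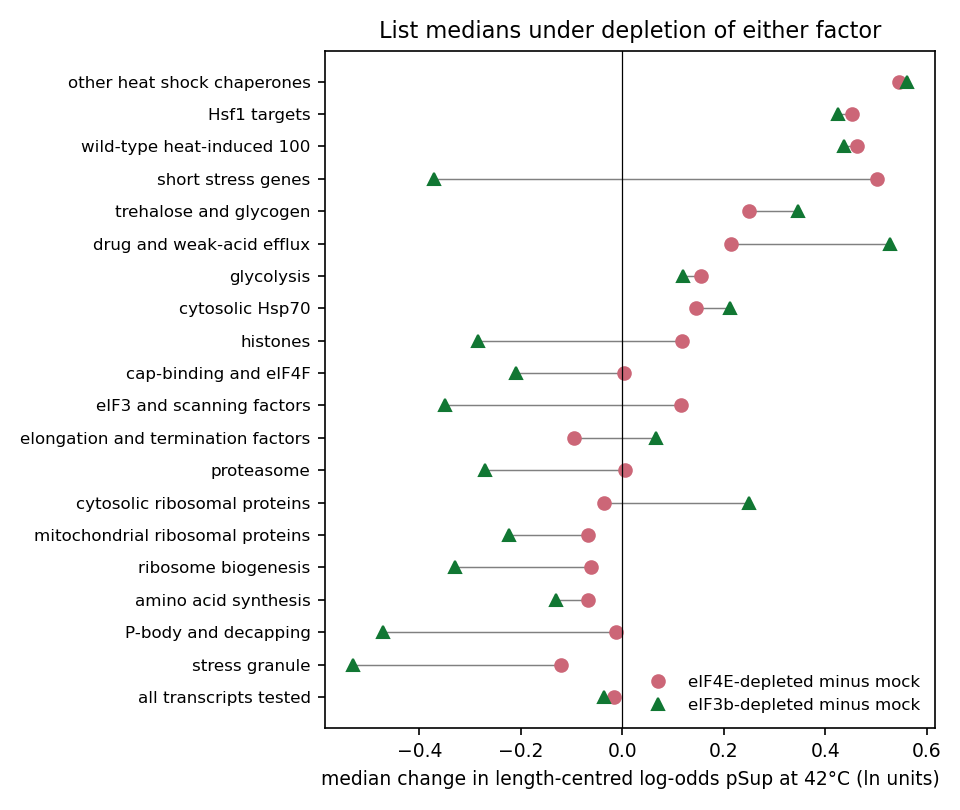
Points give the median change in length-centred log-odds pSup at 42°C (x axis, natural-log units) of each list, depleted minus mock, for eIF4E (red circles) and eIF3b (green triangles), joined by a line. The chaperone list is at 0.55 and 0.56 for the 2 factors, and the cytosolic ribosomal protein list at -0.04 and 0.25.

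The chaperone list had close medians under both depletions, and several other lists did not. The chaperone list gave 16 higher and 0 lower of 20 under eIF3b depletion, with a median of 0.56, beside 25.6% and 30.2% of all transcripts, and in the difference 2 of 20 were higher and 5 lower, beside 20.5% and 19.6% of all transcripts. Cytosolic ribosomal protein mRNAs gave 74 higher and 14 lower of 138 under eIF3b depletion and 11 higher and 20 lower under eIF4E depletion, and 65 were lower and 5 higher in the difference. RPP2B had a length-centred change of 0.85 ± 0.08 under eIF3b and -0.61 ± 0.09 under eIF4E depletion, a difference of -1.47 ± 0.12 (SE, adjusted p = 9.75e-07, limma). Stress granule genes were lower for 10 and higher for 0 of 12 under eIF3b depletion, histone genes lower for 7 and higher for 1 of 10, and ribosome biogenesis genes lower for 36 and higher for 3 of 47, and in the difference 6, 8 and 24 of these were higher and 1, 1 and 3 lower.

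Some factors of initiation also differed between the 2 depletions. Of the cap-binding list 8 of 12 were lower and 0 higher in length-centred log-odds under eIF3b depletion, beside 30.2% and 25.6% of all transcripts. In the difference 6 were higher and 1 lower, beside 20.5% and 19.6% of all transcripts. EAP1 was at -1.03 ± 0.08 under eIF3b and 0.37 ± 0.06 under eIF4E depletion, a difference of 1.40 ± 0.12 (SE, adjusted p = 1.28e-06, limma). TIF4632 was at -0.92 ± 0.06 against 0.10 ± 0.05, and FUN12 at -0.63 ± 0.06 against 0.32 ± 0.05, with differences of 1.02 ± 0.08 and 0.95 ± 0.08. HAC1 rose under both, by 2.03 ± 0.06 under eIF3b and 0.87 ± 0.07 under eIF4E depletion, a difference of -1.16 ± 0.08 (adjusted p = 3.08e-07). FPR1 was at 0.01 ± 0.07 under eIF3b depletion, which did not pass, and its difference was 0.78 ± 0.10 (adjusted p = 3e-05). In Total, the eIF4E effect minus the eIF3b effect was 3.20 log2 units for ARG1 and 2.39 for PGK1 (adjusted p = 3.89e-10 and 4.22e-08, edgeR). PGK1 was itself lower in eIF4E-depleted than in mock cells, so its difference is that of a smaller fall. The 2 strains were handled as separate experiments, so a difference between factors and a difference between experiments cannot be told apart.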

How the data were processed

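Sed-seq Total, supernatant and pellet libraries of the eIF4E degron strain were analysed at 42°C, with those at 30°C and 46°C and of the eIF3b degron strain for comparison. Per the labels and the study's methods, the authors removed duplicate reads by UMI with UMI-tools 1.1.4, trimmed with Trim Galore 0.6.10, mapped to R64 with STAR 2.7.10b and SAMtools 1.16.1, and quantified with kallisto 0.48.0. They deposited estimated counts and TPM of each library, which kallisto scaled by effective length and library total, without pooling. Mixing ratios, which scale supernatant and pellet to Total, were deposited by the authors from a Bayesian model, as was pSup, a fraction computed from the counts and these ratios. The largest difference between recomputed and deposited pSup was 2.5e-15, and counts of 36 libraries were compared between tables, of which 0 differed. Deposited fold changes and scores of the authors were not used, nor were libraries of other experiments, except the wild-type heat experiment for a list and the deposited ribosome occupancy, a fraction, which had a Spearman rho of -0.111 with the length-centred change.

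Of 5906 nuclear protein-coding genes, 5137 had a deposited transcript length, and 4938 of these had supernatant and pellet counts summing to 20 or more in each of the 12 lysates of the strain. Natural-log odds of pSup were tested with limma 3.58.1 (trend), uncentred and length-centred on a running mean (window, 0.02 of the range of log length). Rounded estimated counts of Total were tested with edgeR 4.0.16 (TMM, filterByExpr, quasi-likelihood), in R 4.3.3. All 6 groups of 2 lysates were in 1 fit, with 24 lysates for the comparison with eIF3b. Tests were 2-sided, p-values were adjusted by Benjamini-Hochberg over all transcripts tested, and 0.05 was the threshold. The labels number the 2 lysates of a group as replicates, and the study's methods call replicates biological and grown separately. Scores and figures used Python 3.11.15, numpy 2.4.6, pandas 2.3.3, scipy 1.17.1 and matplotlib 3.10.9. The tests were run on simulated data with known changes, in which noise was independent between transcripts. No offset shared by a lysate was simulated, so the uncentred counts were not checked against one.

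The lists and the transcripts named were chosen with earlier results of these data known. Named are transcripts the study singles out, the cap-binding list, the genotype markers, the 5 largest rises and falls of each comparison with at least 100 counts and the same sign in both replicate numbers, and members of each list with small p. The main tests, those of Total included, did not use the replicate number, which entered only as a block in an alternative. In Total, deviations of same-numbered lysates correlated above 0.1 in 15 of 15 group pairs among transcripts with at least 20 counts in every library. After filterByExpr this held for 10 of 15 pairs, and in pSup for 1 of 15. Alternatives were DESeq2 1.42.0 and its size factors, other count filters, limma without trend, edgeR on supernatant and pellet counts, refitted mixing ratios, NanoLuc scaling, total mRNA scaling, open reading frame length, bins of 100 transcripts, other sizes of the wild-type list, fits at 42°C alone, a replicate block and each lysate left out. RefSeq symbols were matched by locus tag. Of the transcripts this rule named, 1 is not reported here. No sequences are shown.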

Additional observations from a re-analysis of the deposited data

Results flagged for a closer look

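The depletion effect differed between temperatures by a test of the difference for 5 transcripts. Between 42°C and 30°C it was larger on the length-centred scale by 0.66 natural-log units for FPR1 and by 0.71 for YNL108C. FPR1 had a pSup of 0.684 and 0.76 in mock and 0.773 and 0.711 in depleted lysates at 42°C, and YNL108C had 0.62 and 0.727 in mock and 0.66 and 0.614 in depleted lysates. YNL108C went from -0.23 ± 0.06 at 30°C to 0.48 ± 0.06 at 42°C. For this difference 0 transcripts passed with no count minimum or by limma without trend, and 10 passed with at least 100 counts. Between 42°C and 46°C the uncentred effect differed by 1.99 for GIP1, 1.87 for HOP1 and -2.32 for MPH2. At 42°C alone their changes were 0.06 ± 0.28, -0.86 ± 0.27 and 0.56 ± 0.31, and at 46°C they were -1.93 ± 0.28, -2.73 ± 0.27 and 2.89 ± 0.31. All 3 are rare, and limma draws each standard error towards those of other transcripts. These errors therefore do not measure the spread of the 3 transcripts alone. With at least 100 counts in every lysate, 0 transcripts passed between 42°C and 46°C. MPH2 had pSup values of 0.0673 and 0.255 in mock and 0.260 and 0.178 in depleted lysates at 42°C, and the groups overlapped.

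Between the 2 depleted factors the effect at 42°C differed by a test of the difference for 476 transcripts in log-odds pSup, for 1976 on the length-centred scale and for 3596 in Total.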

How the results depend on the processing

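Of the alternative values of the main results, 128 kept their direction and their side of the threshold or stayed within the spread between replicates, and 26 were weaker, 18 stronger and 9 moved. The fall of median pSup kept its sign in all alternatives run, the difference running from -0.252 to -0.0833 and median ΔSed from 0.798 to 2.47 as replicates were left out, and the count of 3418 calls in log-odds ran from 3 to 4208 likewise, with 176 from the 4 lysates at 42°C alone. The length-centred count of 887 ran from 304 to 396, with 545 from those 4 lysates. The difference from 30°C in log-odds gave 3 calls with no count minimum, 6 by NanoLuc and 0 to 3 with 1 lysate left out. Length-centred it gave 10 with at least 100 counts, 0 with no minimum, without trend and with any lysate left out, and 1 in bins of 100 transcripts. The difference from 46°C in log-odds gave 0 with at least 100 counts, 9 with no minimum and 2 to 7 with 1 lysate left out, and length-centred 0 to 1. The difference from eIF3b in log-odds gave 2791 by NanoLuc and 6 to 1141 with 1 lysate left out. In Total the difference from 30°C gave 2 by DESeq2 and 0 to 1 with 1 library left out. With the replicate number as a block, Total differences gave 22 calls against 30°C and 9 against 46°C, and the length-centred difference from 30°C gave 1. The block moved no other count of calls by over 1.5 times, with 3558 in Total at 42°C. The median eSed of Hsf1 targets, 1.07, was 1.1 with at least 100 counts, 0.942 with open reading frame length and 0.953 to 1.00 with 1 replicate. For the 100 wild-type induced mRNAs, 1.09, it was 0.98 with open reading frame length, 1.22 and 0.938 for the 50 and 200 most induced and 1.06 to 1.21 with 1 replicate, and for Msn2/4 targets 0.204 to 0.33. Under total mRNA scaling, chosen after seeing the data, USO1 and EAP1 turned to 0.15 and 0.11 log2 units in Total. Under NanoLuc scaling, chosen likewise, RPP2B (-0.13), PDR15 (-0.18), GCN4 (-0.17), EDC2 (-0.084), TAF1 (-0.11), ADD66 (-0.32), STE3 (-0.11), PMU1 (-0.34), HSP104 (-0.09), RPL3 (-0.41), PRT1 (-0.45) and MF(ALPHA)1 (-0.26) took a negative sign. The cause of these changes was not tested. With 2 lysates a group and about 6270946 estimated counts in the median Total library, precision was limited for rare transcripts such as MPH2, which had 0.645 TPM in mock replicate 2 and a length-centred change with a standard error of 1.35.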

Other observations

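Of the oxidative defence genes, 10 of 18 were lower and 2 higher in Total in depleted cells at 42°C by edgeR, with a median of -0.52 log2 units, where 30.0% of all transcripts tested were lower and 29.8% higher. The abundant peroxiredoxin genes TSA1 and AHP1 were at -1.42 ± 0.12 and -1.33 ± 0.18 in Total and at 0.39 ± 0.07 and 0.36 ± 0.08 on the length-centred scale of pSup by limma, where 2 of 17 of the list were higher and 0 lower (8.02% and 9.94% of all). The AHP1 call on that scale was lost without depleted replicate 1 or 2 or mock replicate 1. Cyclin and Cdk-inhibitor genes were lower in Total for 8 and higher for 2 of 12, with the G1 cyclin CLN2 at -1.28 ± 0.14 and SIC1, an inhibitor of S-phase Cdk, at 0.79 ± 0.09, and 0 of 12 were called on the length-centred scale. P-body and decapping genes were lower for 11 and higher for 3 of 18 in Total. The related decapping activators EDC1 and EDC2 both rose, by 1.02 ± 0.10 and 0.56 ± 0.13 (EDC2 at -0.084 by NanoLuc), but in length-centred pSup EDC2 rose by 0.40 ± 0.07 and EDC1 was at -0.25 ± 0.12, which did not pass, and the EDC2 call was lost without depleted or mock replicate 2. Unfolded protein response genes were lower for 8 and higher for 1 of 14 in Total, and eIF2 and eIF2B genes lower for 5 and higher for 0 of 8. Msn2/4 targets rose in Total for 93 and fell for 32 of 194, with a median of 0.33 that was -0.32 by NanoLuc. In length-centred pSup 35 of 182 were higher and 3 lower, and 14 to 19 higher when 1 lysate was left out. YRO2 among them had 69.5 and 60.9 TPM in mock and 225.6 and 187.3 TPM in depleted cells.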
